A study of Mus musculus with 4 samples.

Results

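Sox1, Sox4, Sox9, Sox10, Sox11, Sox12, Sox14, Sox17, Sox18 and Sox21 are developmental members of the Sox family, and they were placed by symbol on the mouse genome build mm9 with GENCODE release M1. These 10 genes are compared below with the 22350 protein-coding genes on chromosomes that carry a Wapal site. Sox1 has no entry under that symbol in the annotation, and its transcriptional start site (TSS) was taken from the only exact match in mm9 of its 300-base RefSeq promoter. The position of binding sites of Wapal, a cohesin-associated protein, was determined around each gene. The study performed biotin ChIP-seq in mouse embryonic stem cells (ESCs), in which the bacterial ligase BirA adds biotin to a tag on the protein inside the cell, and streptavidin beads then recover the protein with its DNA. The samples were 2 independently derived clones expressing Flag/Bio-tagged Wapal (FB Wapal, labelled Wapal_rep1 and Wapal_rep2), 1 control line expressing BirA without tagged Wapal, and 1 input of sheared genomic DNA. All lines were kept in standard ESC conditions, the FB Wapal clones were made from BirA-expressing ESCs and so also carry the ligase, and the protein followed is an added, tagged copy. Regions were deposited as 1 list for both clones together and 1 list for BirA, so no value below has a spread between replicates.

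Sox proteins bind DNA through a high-mobility-group box related to that of Sry, and they direct the choice of cell fate in the embryo. Many Sox genes are silent in pluripotent cells and are turned on in single lineages, whereas Sox2 maintains pluripotency. Cohesin forms a ring around chromatin and accumulates where CTCF, a zinc-finger protein, binds its motif, and Wapal releases cohesin from chromatin. The question addressed here is how far the deposited Wapal sites lie from these genes. Of them, the study examined Sox11 by ChIP-qPCR of a histone mark and a protein of Polycomb, which silences genes, and not of Wapal.

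The FB Wapal list held 8497 regions with MACS scores from 50.0 to 685, where the score is 10 times the negative log10 of the p-value that MACS gave the region. Removal of the 174 regions that shared at least 1 bp with any of the 266 BirA regions left 8323 sites with a median score of 81.4. The paper reports slightly fewer sites after its own subtraction of BirA regions, so this set is not identical to that of the authors. Distances are from the TSS to the nearest edge of a site, and the interval without sites runs from the last site before the TSS to the first site after it. The lists hold no read counts and no expression, so the depth behind a single site is unknown and the activity of the genes was not measured here. Absence from the list means that no region passed the authors' threshold, not that Wapal was absent.

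The sequences of 50 bases below lie within sites that bound the intervals around 6 of the genes, and they are shown because these sites set the lengths described here and carry the strand of the motif. Each was read from mm9 on the strand of the best match to the 12-base CTCF core motif, which is in capitals, with 19 bases to either side. The Sox11 sites lie on both sides of a gene that the study examined, those of Sox4 and Sox9 bound the longest intervals, those of Sox14 are placed unevenly, those of Sox21 point away from each other, and that of Sox12 is the closest to a TSS.

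Sox11, upstream site, chr12:28284195-28284244, plus strand: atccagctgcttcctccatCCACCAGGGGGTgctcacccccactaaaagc

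Sox11, downstream site, chr12:27217980-27218029, plus strand: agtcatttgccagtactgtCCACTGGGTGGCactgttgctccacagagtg

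Sox4, upstream site, chr13:29696294-29696343, minus strand: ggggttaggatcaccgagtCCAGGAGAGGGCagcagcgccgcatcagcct

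Sox4, downstream site, chr13:26024855-26024904, plus strand: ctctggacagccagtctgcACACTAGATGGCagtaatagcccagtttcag

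Sox9, upstream site, chr11:111397516-111397565, plus strand: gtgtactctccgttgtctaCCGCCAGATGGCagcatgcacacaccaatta

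Sox9, downstream site, chr11:113026597-113026646, minus strand: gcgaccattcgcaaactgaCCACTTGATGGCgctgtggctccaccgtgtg

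Sox14, upstream site, chr9:100300948-100300997, minus strand: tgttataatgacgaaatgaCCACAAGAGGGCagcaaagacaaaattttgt

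Sox14, downstream site, chr9:99747395-99747444, plus strand: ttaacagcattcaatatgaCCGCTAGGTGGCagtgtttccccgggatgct

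Sox21, upstream site, chr14:119016050-119016099, plus strand: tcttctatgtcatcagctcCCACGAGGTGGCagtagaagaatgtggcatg

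Sox21, downstream site, chr14:118338060-118338109, minus strand: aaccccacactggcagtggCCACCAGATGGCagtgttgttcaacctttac

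Sox12, downstream site, chr2:152218694-152218743, plus strand: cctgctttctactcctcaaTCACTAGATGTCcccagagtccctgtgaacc

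Of these 11 sequences, the downstream site of Sox21 matched the core motif exactly, that of Sox12 had 2 mismatches, and each of the others had 1 mismatch.

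The 10 genes differed widely in their distance to Wapal sites, from 4.82 kb at Sox12 to 650.3 kb at Sox4. The median distance to the nearest site was 122 kb, against 72.5 kb over all protein-coding genes. With the FB Wapal regions that overlap BirA kept, the medians were 77.3 and 71.0 kb, and the change in the Sox genes came from Sox21 alone. The nearest site was farther than the protein-coding median at 6 of the genes and nearer at 4, and it was farther at 6 also with those regions kept. One gene, Sox12, had a site within 10 kb, a distance at which the study looked for sites near its candidate genes, and 9.14% of protein-coding genes had one. A site lay within 100 kb of 5 of the 10 genes, and of 60.1% of protein-coding genes. Sites within 2 kb were found at 0 of the 10 TSSs and at 2.04% of protein-coding TSSs. The nearest site lay downstream of 7 genes and upstream of 3, with reference to the direction of transcription, and it was downstream for 48.2% of protein-coding genes.

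The intervals without sites ranged from 93.8 kb around Sox12 to 3.67 Mb around Sox4, with a median of 578 kb against 365 kb for the 22071 protein-coding genes with a site on both sides. An interval of at least 500 kb surrounded 6 of the 10 genes and 36.1% of protein-coding genes. Sox21 was among the 6, but its interval was 373 kb with the FB Wapal regions that overlap BirA kept. An interval of at least 1 Mb surrounded Sox4, Sox9 and Sox11, that is 3 of 10, and 15.8% of protein-coding genes. Sox4 was the only member with no site within 500 kb, where 6.6% of protein-coding genes had none. Counts over 10 genes are given as a description without a test. With so few genes, the differences from these shares cannot be read as a property of the group.

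**Figure D1:**
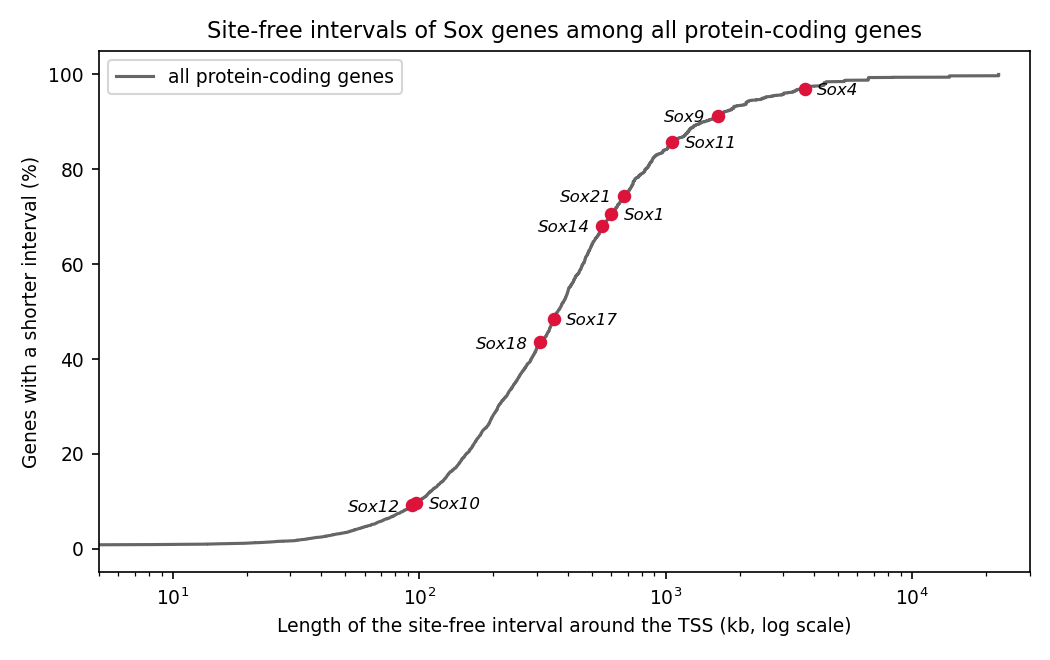
The horizontal axis shows the length of the interval without Wapal sites around the TSS in kb on a log scale, and the vertical axis the percentage of protein-coding genes with a shorter interval. The grey line stands for all protein-coding genes and the red points for the 10 Sox genes, which spread from 9.12% at Sox12 to 96.9% at Sox4.

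Among the SoxC genes, which act in neuronal differentiation and in organ development, Sox11 lay in an interval of 1.07 Mb. Sox11 (ENSMUSG00000063632.5) is a gene of 1 exon at chr12:28025562-28027574 on the minus strand. Its nearest site lay 256 kb upstream at chr12:28283570-28284607 and its nearest downstream site at 809 kb. Of protein-coding genes, 84.7% had a nearer site and 85.8% a shorter interval. The interval ranked 396 among the 8303 gaps between neighbouring sites, whose median was 155 kb. Intervals around protein-coding TSSs had a median of 365 kb, so ranks among gaps are not shares of genes.

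The upstream site of Sox11 was among the weakest in the list, with a score of 51.6 and rank 8058 of 8323. The downstream site at chr12:27217739-27218534 had a score of 77.6. Both sites were extragenic, and no other site lay within 500 kb of the Sox11 TSS. Gm9866 was the only other protein-coding gene whose TSS lay in the interval, 182 kb downstream of that of Sox11.

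The ChIP-qPCR amplicon of the study at Sox11 was located from its primers, atgaggtcgtctgcatcctc and gccggctctactacagcttc, each of which matched mm9 once. The 151-bp product at chr12:28026324-28026474 lies in the coding part of the exon, 1100 to 1250 bp downstream of the TSS. The nearest Wapal site was 257 kb from it and the nearest BirA region 7728 kb. In the study, the amplicon served to measure the Polycomb mark H3K27me3 and the Polycomb protein Suz12 after depletion of Wapal, not Wapal itself. The paper reports no called site close to Sox11, but evidence of Wapal enrichment around its TSS and derepression of the gene after depletion. Enrichment below the calling threshold cannot be seen in the lists used here.

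Sox4 lay in the longest interval of the group, 3.67 Mb, which ranked 34 among the 8303 gaps. The gene (ENSMUSG00000076431.3, chr13:29040788-29045582, minus strand) has 2 records under its symbol in the annotation, of which the longer was used. Its nearest site lay 650.3 kb upstream with a score of 69.7, in an intron of Cdkal1. The next site downstream was 3020.3 kb away with a score of 60.4. Of protein-coding genes, 95.2% had a nearer site and 96.9% a shorter interval.

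The interval of Sox4 held the TSSs of 26 other protein-coding genes, although none lay within 500 kb of the Sox4 TSS. Of these, 23 were genes of the prolactin family, which encode pituitary and placental hormones, at 811 to 1896 kb downstream. The nearest was Prl5a1 at 811 kb, followed by Prl4a1 at 938 kb and Gm11360 at 998 kb. The prolactin cluster and Sox4 therefore shared the same flanking Wapal sites.

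Sox12, also a SoxC gene, was at the other end of the range. Its gene record (ENSMUSG00000051817.7) spans chr2:152219347-152223782 on the minus strand, and the nearest site at chr2:152218269-152218961 lay 4.82 kb downstream of the TSS with a score of 98.0. That site is extragenic and begins 0.386 kb past the 3′ end of the gene. The interval was 93.8 kb, 8 sites lay within 500 kb, and 4.41% of protein-coding genes had a nearer site. Zcchc3, 6820408C15Rik and Defb23 were the nearest of the 4 protein-coding genes in the same interval, at 17.0, 17.5 and 66.6 kb. The SoxC genes thus held both the shortest and the longest distance and interval of the 10 genes.

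**Figure D2:**
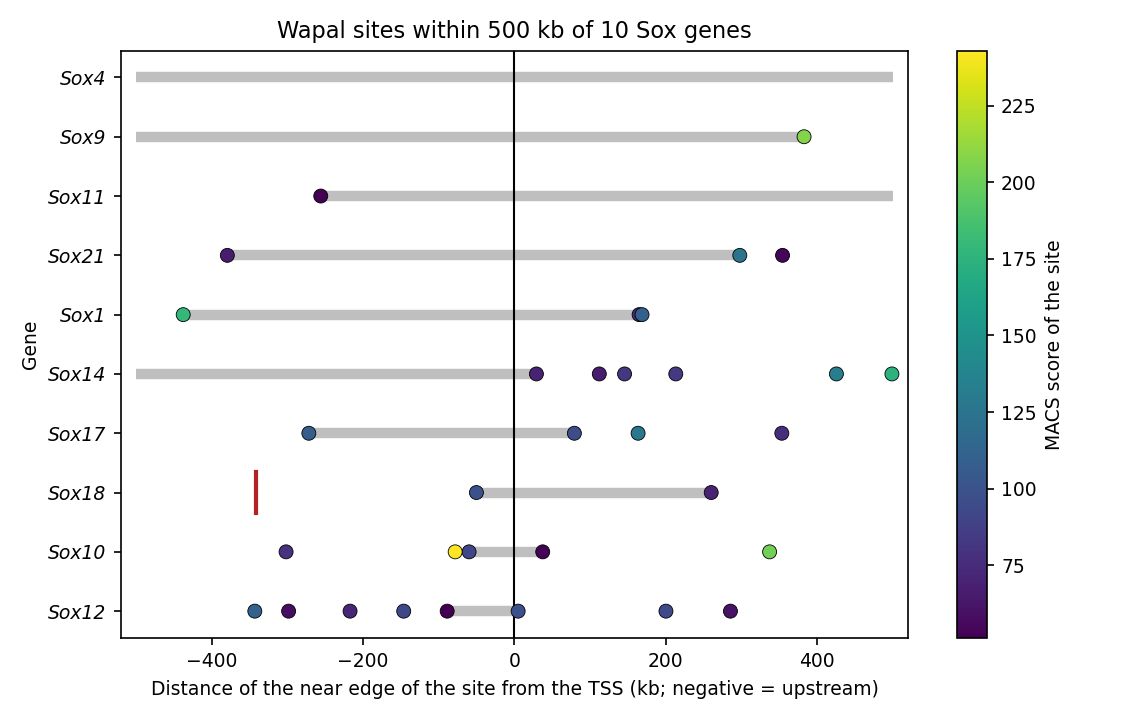
Each row is a Sox gene, ordered by interval length, and the horizontal axis is the distance of a Wapal site from the TSS in kb, with upstream to the left. Points are the 33 sites within 500 kb coloured by MACS score, grey bars are the intervals without sites cut at 500 kb, and the red line marks the end of the chromosome 342 kb upstream of Sox18.

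The SoxB genes Sox1, Sox14 and Sox21 act in neural progenitors and neurons, Sox1 as an activator and the other two mainly as repressors. Sox1 (TSS at chr8:12395519, plus strand) had its nearest site 165 kb downstream, with a score of 74.7, and its nearest upstream site at 438 kb, with a score of 179. The interval was 602 kb, and 3 sites lay within 500 kb. The downstream site, of 2705 bp, was the widest of the sites within 500 kb of the members, and the next site began 169 kb from the TSS with a score of 109. The TSSs of Gm5607, 9.75 kb upstream, and A230072I06Rik, 117 kb upstream, lay in the same interval.

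Sox14 (ENSMUSG00000053747.6, chr9:99774644-99776663, minus strand) showed the most uneven placement of sites. All 6 sites within 500 kb lay downstream, at 29.0, 112, 145, 213, 425 and 499 kb. The nearest had a score of 69.8 and the farthest a score of 174. The first upstream site was 524 kb away with a score of 100.2. The interval of 553 kb held no other protein-coding TSS.

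Sox21 (ENSMUSG00000061517.6, chr14:118632454-118636252, minus strand) lay near the middle of an interval of 677 kb. Its sites were 298 kb downstream, in an intron of Gpc6 with a score of 124, and 379 kb upstream, in an intron of Abcc4 with a score of 65.6. The length depended on the control, since a region of the FB Wapal list with a score of 229.8 at chr14:118711742-118712569, 75.5 kb upstream, was removed because it overlapped a BirA region. The BirA region at chr14:118711963-118712385 had a score of 53.1, and scores are not comparable between the lists. With that region kept, the nearest site of Sox21 was at 75.5 kb and the interval was 373 kb. This was the only member with a BirA region inside its interval. Gm9376, Gpr180 and Tgds were the nearest of the 4 protein-coding genes in it, at 30.1, 99.9 and 104 kb.

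The SoxE genes differed from each other. Sox9, which directs cartilage formation and testis determination, is at chr11:112643538-112649074 on the plus strand (ENSMUSG00000000567.4). It lay in an interval of 1.63 Mb that ranked 210 of the 8303 gaps, and 91.3% of protein-coding genes had a shorter interval. Its nearest site was 383 kb downstream in an intron of the lincRNA gene 2610035D17Rik, with a score of 207, the highest of the 10 nearest sites. The upstream site was 1246 kb away with a score of 119.9. Gm11678, 351 kb upstream, was the only other protein-coding gene in the interval.

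Sox10, which acts in neural crest, glia and pigment cells, had sites close by on both sides. The gene (ENSMUSG00000033006.8) is at chr15:78985343-78994920 on the minus strand. The nearest site lay 37.3 kb downstream in an intron of Micall1 with a score of 52.7, and the upstream site lay at 60.0 kb with a score of 92.1. The next site, 78.4 kb upstream, lay within Pick1, with its centre within 2 kb of the start of an annotated transcript. That site had a score of 243, the highest of all sites within 500 kb of the 10 genes. The interval of 97.3 kb also held the TSSs of Polr2f and 1700088E04Rik, both 23 kb downstream to the nearest kb. Sox10 and Sox12 were the 2 genes with a site within 100 kb on both sides.

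The SoxF genes, which act in endoderm and in vessels, had intermediate values. Sox17 (ENSMUSG00000025902.7, chr1:4481009-4486494, minus strand) had its nearest site 79.1 kb downstream with a score of 95.3 and its upstream site at 272 kb with a score of 108. Its interval of 351 kb held no other protein-coding TSS, and 4 sites lay within 500 kb. A further region of the FB Wapal list, 475 kb upstream with a score of 76.9, was removed because it overlapped a BirA region.

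Sox18 (ENSMUSG00000046470.5, chr2:181404541-181406345, minus strand) had its nearest site 50.3 kb upstream with a score of 99.2 and its downstream site at 260.0 kb, in an exon of Zbtb46, with a score of 69.4. The interval of 310.3 kb held the TSSs of 12 other protein-coding genes, of which Tcea2, Rgs19 and 4930526D03Rik were the nearest at 8.67, 22.3 and 26.8 kb. The gene lies 342 kb from the end of the chromosome, so that its count of 2 sites within 500 kb comes from a shortened window.

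**Figure D3:**
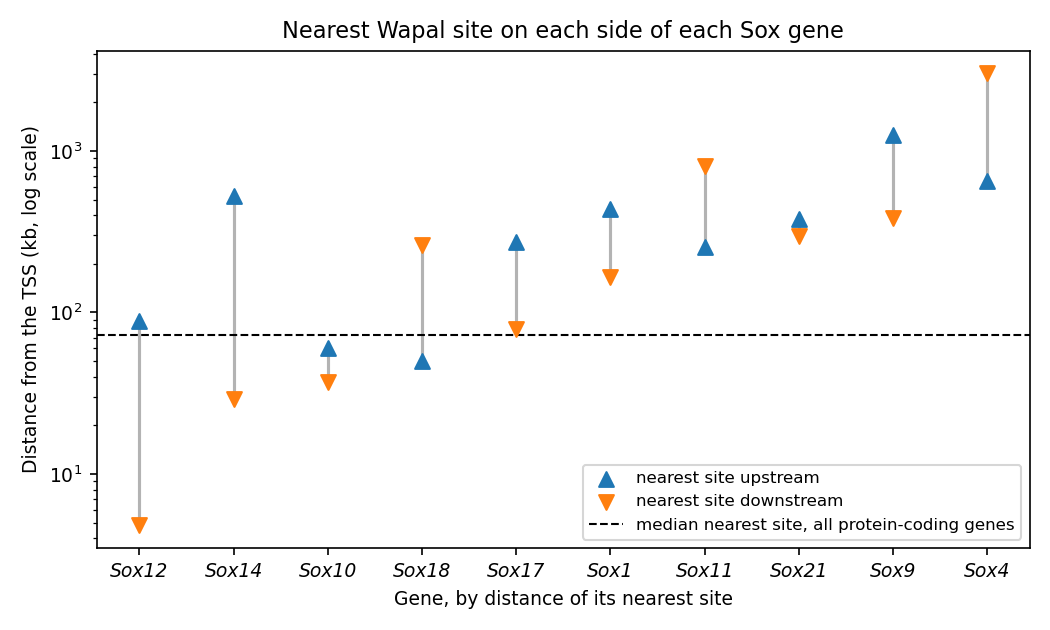
The vertical axis shows the distance from the TSS in kb on a log scale, with upward triangles for the nearest upstream site and downward triangles for the nearest downstream site of each gene, joined by a line. The dashed line is the protein-coding median of 72.5 kb, and both triangles lie above it at Sox17, Sox1, Sox11, Sox21, Sox9 and Sox4.

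Across the 10 genes, 33 sites lay within 500 kb of a TSS, from 0 at Sox4 to 8 at Sox12. The mean of 3.3 sites per gene and the median of 3 compare with 4.47 and 4 over protein-coding genes. The scores of these sites ranged from 51.3 to 243 with a median of 92.1, and 33.3% of them reached 100, against 34.6% of all sites. The 10 nearest sites had scores from 51.6 to 207 with a median of 85.0, of which 5 were above the median of the list and 5 below. A score of 100 was reached by 2 of these 10. For the 33 sites, the share that reached 100 was thus close to that of the whole list. Their median score was above the list median of 81.4.

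By their centres, 21 of the 33 sites were extragenic, 9 intronic, 1 exonic and 2 in promoters, defined as within 2 kb of the TSS of any transcript. The extragenic share was 63.6% (95% Wilson interval 46.6 to 77.8%) against 54.1% of all sites. The promoter share was 6.06% (1.68 to 19.6%) against 9.90%. Both intervals include the value for all sites. They cover counting error alone and treat the sites as independent, although several lie near the same gene. Of the 10 nearest sites, 6 were extragenic and 4 intronic, and the introns were those of genes other than the Sox genes.

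The sites near the Sox genes carried the CTCF core motif about as often as other sites. A match with at most 1 mismatch on either strand was found in 23 of the 33 sites, or 69.7% (52.7 to 82.6%), against 74.5% of all sites and 10.0% of equally wide stretches 5 kb to either side of them. The motif was present in 8 of the 10 nearest sites, the exceptions being those of Sox1 and Sox12, whose best matches had 2 mismatches. It was present in 17 of the 20 sites that bound the intervals. Such a match is a description of the sequence and was not compared with CTCF binding here.

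Where both bounding sites held the motif, their orientation was read. The motifs pointed towards each other around Sox4, Sox9 and Sox14, away from each other around Sox21, and along the same strand around Sox10, Sox11, Sox17 and Sox18. The pair could not be read at Sox1 and Sox12. In all, 3 of 8 pairs, or 37.5% (13.7 to 69.4%), were convergent and 1 of 8, or 12.5% (2.24 to 47.1%), divergent, against 34.3% and 16.8% of the 597 pairs of neighbouring sites at least 500 kb apart and 26.7% and 27.3% of all 3946 pairs. The Wilson intervals of the 8 pairs include each of these shares. The pairs at Sox10, Sox17 and Sox18 were less than 500 kb apart, and the convergent and divergent pairs were all farther apart than that.

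The density of exact copies of the core motif differed between the intervals. The 10 intervals together spanned 9.05 Mb and held 25 exact motifs outside any site, or 2.76 per Mb, against 4.98 per Mb in mm9, where 18.9% of the 12717 exact motifs lay in a site. Motifs inside sites count towards the rate in mm9 and, by definition, not towards that of the intervals. The Sox17 interval held no exact motif, those of Sox4 and Sox11 held 2 each, at 0.545 and 1.88 per Mb, and that of Sox9 held 5, at 3.07 per Mb. The density was above that of mm9 in the 3 shortest intervals, with 42.7 per Mb at Sox12 (4 motifs), 20.6 at Sox10 (2 motifs) and 16.1 at Sox18 (5 motifs), and below it in the other 7. The pooled rate rested largely on Sox4, and without that interval it was 4.28 per Mb (23 motifs in 5.38 Mb), a value computed after the data were seen.

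Since only reads that aligned to a single position were kept, the share of positions at which a 49-base window occurs once in mm9 was computed for each interval. It ranged from 86.9% at Sox17 to 97.8% at Sox1, and was 88.6% at Sox4, 94.3% at Sox11 and 97.0% at Sox9, against 88.5% of windows drawn over the genome. None of the intervals contained undetermined bases. These shares count exact copies alone, and the part of alignment in the lengths of the intervals was not tested.

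Genes were also grouped by the number of other protein-coding TSSs within 500 kb. The median interval of protein-coding genes was 556 kb in the class with 0 to 5. It was 337 to 354 kb in the classes with more, without a steady fall. The Sox genes had a median of 5.5 other protein-coding TSSs within 500 kb, against 15 for protein-coding genes. Sox4, Sox9, Sox11, Sox17 and Sox21 had 5 or fewer. Of these, 4 had an interval longer than 556 kb, the median of protein-coding genes with as few neighbours, and Sox17, at 351 kb, did not. Sox21 was among the 4, but its interval was 373 kb with the FB Wapal regions that overlap BirA kept. Sox1, with 6 neighbours, and Sox14, with 7, exceeded the median of 344 kb of their class. Sox10 and Sox18, with 30 and 27 neighbours, and Sox12, with 32, had intervals shorter than the medians of 343 and 354 kb of their classes. The part of gene density in the lengths of the intervals was not tested.

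**Figure D4:**
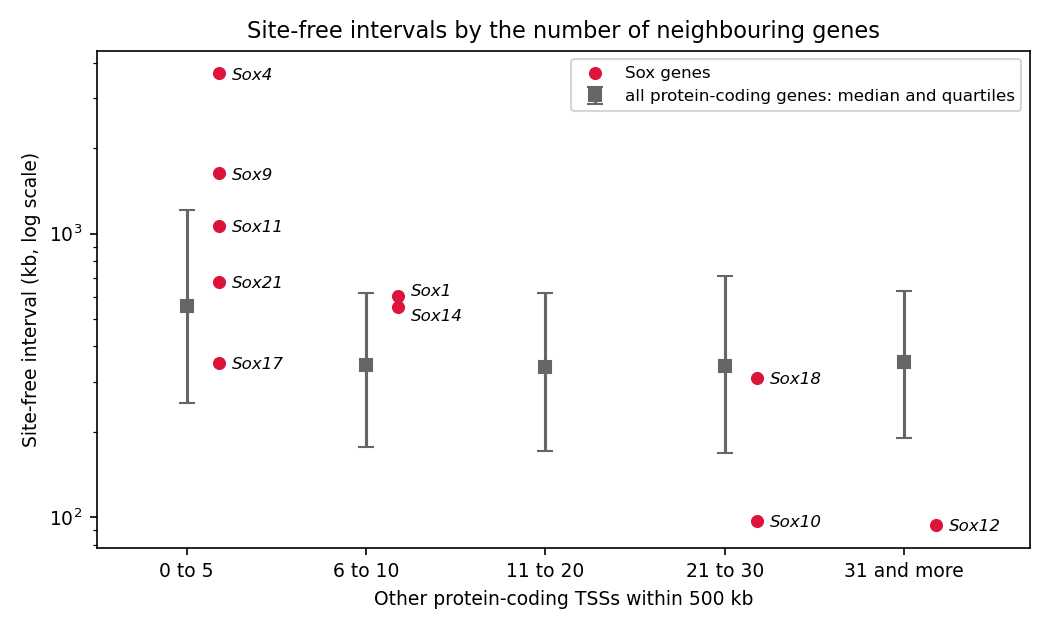
The horizontal axis groups genes by the number of other protein-coding TSSs within 500 kb, and the vertical axis shows the interval without sites in kb on a log scale. Grey squares and bars are the median and quartiles of protein-coding genes, and the red points are the Sox genes, of which those with 21 or more neighbours lie below the median of their class.

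The CpG content around the TSS was above the protein-coding median at these genes, at Sox10 only just. In the 1 kb to either side, the ratio of observed to expected CpG had a median of 0.738 and ranged from 0.475 at Sox10 to 0.963 at Sox11, and it was above the protein-coding median of 0.468 at 10 of 10 genes. The GC content had a median of 61.3% against 51.1% and was above the protein-coding median at 9 of 10 genes, with Sox17 at 47.5% as the exception. The ratio was not particular to these 10 genes. Over the other Sox genes on chromosomes with a site it ranged from 0.356 at Sox15 to 0.844 at Sox3, and most were above 0.468. Sox11, with the highest ratio of the 10 genes, and Sox12, with 0.947, lay 256 and 4.82 kb from their nearest sites. Whether the ratio went with distance was not tested.

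The 9 other Sox genes on chromosomes with a site had a median distance of 62.3 kb and a median interval of 274 kb, with 5 sites within 500 kb in the median. Their distances ranged from 0 to 760 kb. Sox2, which the ESC state requires, was covered at its TSS by a site of 4551 bp at chr3:34546394-34550944 with a score of 112, and a BirA region lay 3.73 kb from that TSS. Sox6 had a site at 1.21 kb with a score of 51.7. The medians of forkhead genes were 56.5 kb and 307 kb (43 genes), and those of paired box genes 65.7 kb and 288 kb (9 genes). The 10 Sox genes had the larger medians in each case, and these groups of genes were not tested against each other. With the regions that overlap BirA kept, the medians of the 10 genes were 77.3 kb and 463 kb. Those of the other families are not given for that setting.

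A minimum score changed the values of the single genes. With the 2878 sites of score 100 or more, the nearest site of Sox11 was 1271 kb from its TSS and its interval was 4.52 Mb, since both of its bounding sites scored below 100. The interval of Sox4 was also 4.52 Mb and its nearest site was at 1131 kb. Sox12, the gene with the nearest site in the main list, then had its nearest site at 343 kb and an interval of 2.07 Mb. The values of Sox9 did not change, since both of its bounding sites scored above 100. Sox18 had no site of that score between its TSS and the end of the chromosome and so had no interval. The median distance was 363 kb against 234 kb over protein-coding genes, and the nearest site was farther than that median at 7 genes. The median interval was 1628 kb over 9 genes against 1199 kb, and it was longer at 5 of 9.

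**Figure D5:**
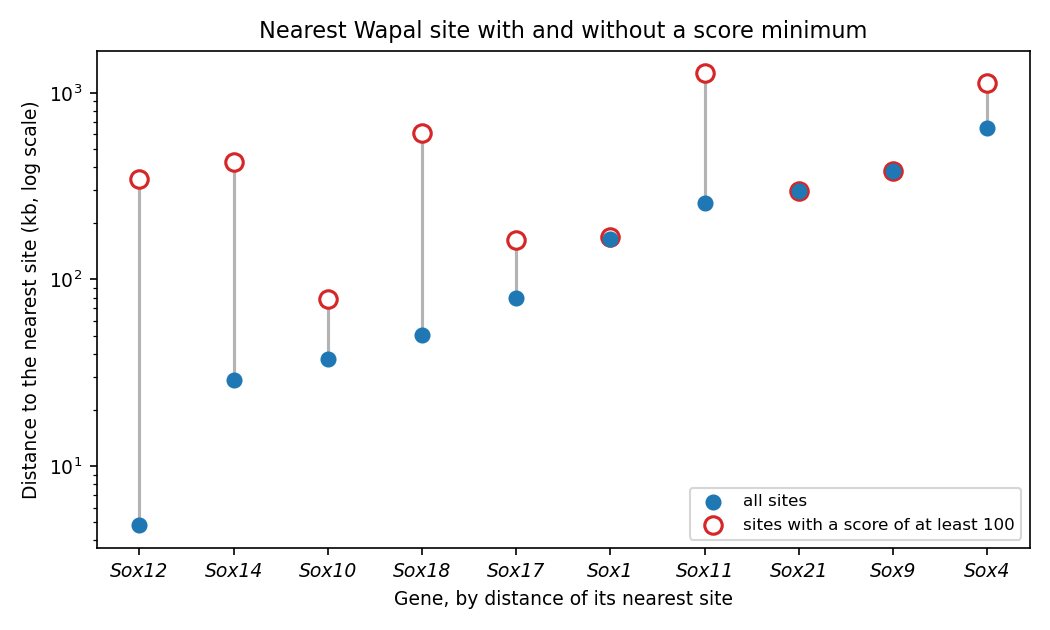
The vertical axis shows the distance from the TSS to the nearest Wapal site in kb on a log scale, with blue points for all sites and open red circles for sites with a score of at least 100. The points coincide at Sox9 and Sox21, and those of Sox12 move from 4.82 to 343 kb.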

How the data were processed

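Biotin ChIP-seq was performed by the authors on 2 FB Wapal clones, BirA cells and input. Reads were aligned by them to mm9 using Bowtie and kept only where they had 1 position, and MACS (1.4.2 per the labels) called regions against input. The deposited lists give a MACS score per region, which is 10 times the negative log10 of p and which the authors did not normalize between lists. How the regions of both clones were joined is not given in the sources used here. Counts of reads per region were not analysed here, so the precision of a region is unknown.

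FB Wapal regions sharing at least 1 bp with a BirA region were removed. TSSs were the 5′ ends of GENCODE M1 gene records. Where 5 members could be compared, exact RefSeq promoter matches gave TSSs 0 to 74 bp away. The 12-base CTCF core motif was searched on both strands. The members and lists were chosen with earlier results of these data known. All 10 members were named, with other Sox genes that have a site within 10 kb and up to 3 genes per interval, nearest first. Genes that hold a site, and the prolactin genes as a family, were named after their values were seen. Forkhead genes were symbols of Fox with a letter and a number, which left out the oxidoreductase genes Foxred. The functions were tested on simulated data, and 200 of 200 planted distances, intervals, sides and motifs were recovered. Python 3.11.15, numpy 2.4.6, pandas 2.3.3, scipy 1.17.1, numba 0.67.0 and matplotlib 3.10.9 were used.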

Additional observations from a re-analysis of the deposited data

How the results depend on the processing

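No paired analysis was possible because the regions of both FB Wapal clones were deposited as 1 joined list, and for the same reason no replicate could be left out. The median distance to the nearest site (122 kb) became 363 kb with a score of at least 100 and 77.3 kb with no removal of BirA regions, a change that came from Sox21 alone. The same score minimum took the median interval from 578 to 1628 kb. The 33 sites within 500 kb became 8 within 100 kb, 17 within 250 kb, 75 within 1000 kb, and 11 with a score of at least 100. The single gene with a site within 10 kb became 0 within 2 kb, 3 within 50 kb, 5 within 100 kb, and 0 with a score of at least 100. The share of sites with the motif became 21.2% with no mismatch and 93.9% with up to 2. The larger windows and looser matches hold more by construction. The other 10 alternatives for these summaries, among them distances from site centres, from transcript starts and from gene bodies, stayed within 1.5 times of the value given. Beside all annotated genes the median was 83.9 kb and 5 Sox genes were farther, and beside protein-coding genes of the same chromosomes it was 68.5 kb and 6 were farther. For single genes, 84 values stayed within 1.5 times and 15 moved, 12 of them with the score minimum, 2 at Sox21 without the removal, and 1 at Sox12, whose gene body lay 0.386 kb from its site.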
